A study of Mus musculus with 4 samples.

Results

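Atf4 and 9 other regulators of the integrated stress response were examined in the crypt epithelium of mice, taken from the jejunum (the stretch of small intestine between duodenum and ileum). They were Atf4, Atf5, Atf3, Cebpb, Cebpg, Ddit3, Trib3, Chac1, Ddit4 and Ppp1r15a. Every probe set, a group of short oligonucleotides that reports on 1 transcript, was taken if the platform annotation named 1 of these genes and no other gene. This gave 17 of 45037 probe sets and all 10 genes, of 18193 measured, and no probe set named a member together with another gene. Of the 10 genes, 5 had 1 probe set, 3 had 2 and 2 had 3. In all 4 arrays all 17 probe sets exceeded the median of 27 control probe sets for Bacillus genes, which mark the background. Exceeding that median does not by itself show that a transcript was detected, since background probe sets also lie above it.

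The knockout mice carried floxed Yy1 alleles (YY1f/f) and Vil-Cre-ERT2, a Cre recombinase that the Villin promoter drives in intestinal epithelium and that tamoxifen switches on. The other group was named control, with no genotype stated. All 4 arrays, 2 biological replicates in each group, shared the strain label C57BL/6J enriched and a treatment label of 4 days of tamoxifen, whose wording does not settle whether the control mice received it or carried the recombinase. Effects of these on any gene below and the loss of Yy1 therefore cannot be told apart.

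The integrated stress response begins with kinases that phosphorylate the translation initiation factor eIF2 when cells lack amino acids or heme, hold unfolded proteins in the endoplasmic reticulum, or contain double-stranded RNA. General translation then falls, while the mRNAs of Atf4 and Atf5 are translated better because of short reading frames upstream of their coding sequence. ATF4 pairs with other basic leucine zipper (bZIP) factors and activates genes of amino acid synthesis, amino acid import, tRNA charging and, under lasting stress, cell death. Transcript levels were measured here, and eIF2 phosphorylation and protein levels were not.

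The brightest of 4 Yy1 probe sets stood at 69.4 and 68.1 in the knockout arrays, against 1648 and 1681 in the control arrays, and the groups did not overlap with any of the 4. Values are linear intensities, with medians of 141 and 141 in knockout and 139 and 143 in control arrays and Bacillus control medians of 31.9 to 35.6. Log2 differences are knockout minus control on log2(intensity + 16), from limma over all 45037 probe sets, and are given ± standard error (SE). A probe set was called at an adjusted p (Benjamini-Hochberg over all of them) under 0.05. Of all probe sets, 20.0% were called, 10.9% higher and 9.09% lower in the knockout. All 14 listed markers of crypt epithelium were measured and none lay under the Bacillus median in every array; Olfm4 and Cdx2 were lower in the knockout. As a measure of RNA quality, the log2 excess of the 3' over the 5' Gapdh control averaged 1.68 ± 0.0438 in knockout and 1.42 ± 0.0316 in control arrays (SD, n = 2 each). Of 19 measured enterocyte markers 13 were lower in the knockout, and their summed intensity was 59440 and 86352 in knockout and 121335 and 119015 in control arrays. That count was 7 without control replicate 1 and 8 without control replicate 2. Of 15 immune markers 2 were lower, with sums of 10956 and 11998 in knockout and 11710 and 11948 in control arrays. Of 13 mesenchyme markers 1 was lower, with sums of 1826 and 1652 in knockout and 1882 and 2037 in control arrays. By limma 10.4% of all genes were lower, against 68.4% of enterocyte, 13.3% of immune, 7.69% of mesenchyme and 14.3% of crypt markers. Over the alternatives 7 to 19 enterocyte, 1 to 3 crypt, 1 to 3 immune and 0 to 2 mesenchyme markers were called lower. The part of these differences in the results below was not tested, and fewer cells of a type cannot be told apart from less RNA per cell.

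Of the 10 regulators, Chac1 and Atf5 rose in the knockout and the other 8 did not pass the test in either direction. By gene, taking the brightest probe set of each, 2 of 10 were called, where 23.0% of all genes were called, 12.6% higher and 10.4% lower. By probe set, 2 of 17 were called (11.8%), a share below the 20.0% of all probe sets. The knockout arrays did not overlap the control arrays in 7 of the 17 probe sets (41.2%), against 59.9% of all probe sets. By brightest probe set this held for 5 of the 10 genes, against 62.0% of all genes. No member was called lower by limma, and none had an unadjusted p under 0.05 in that direction. The median log2 difference was 0.04 over the 10 genes and 0.01 over all genes.

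**Figure D1:**
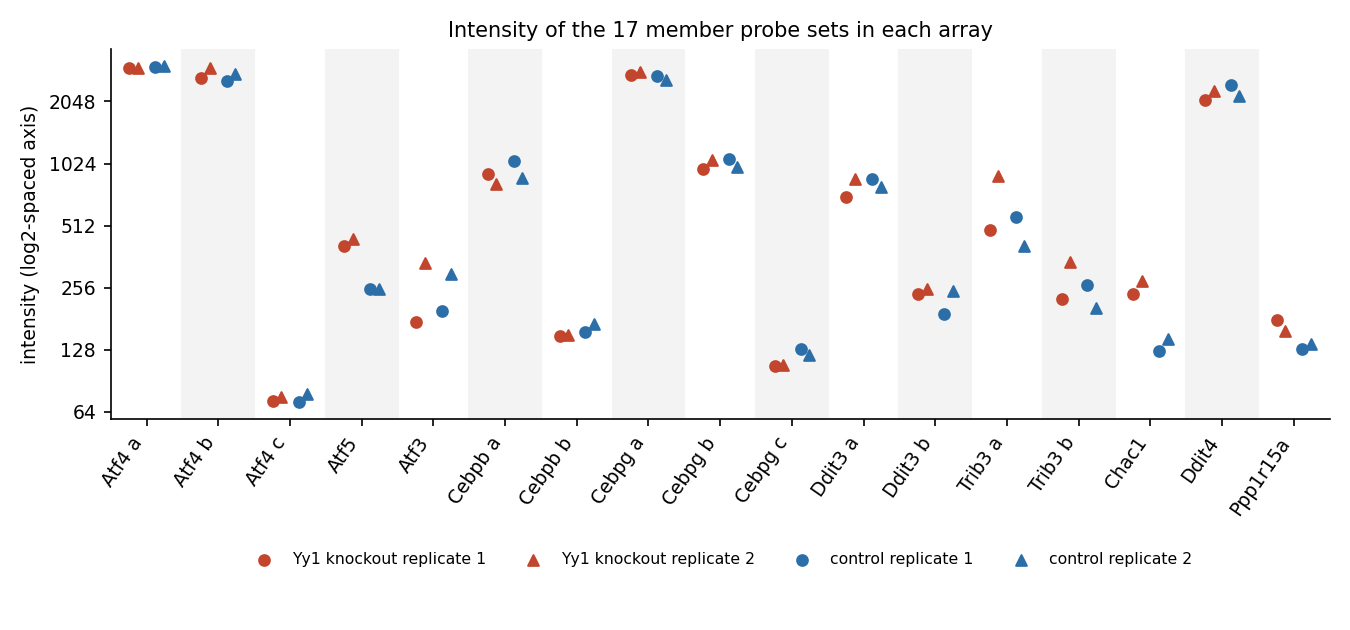
Intensity (log2-spaced vertical axis) of the 17 probe sets in each of the 4 arrays, knockout in red to the left and control in blue to the right, circles for replicate 1 and triangles for replicate 2. Letters after a gene name run from its brightest probe set (a) to its dimmest. Atf5 and Chac1 lie above control in both knockout arrays, the Atf4 arrays lie together, and Atf3 and Trib3 spread within the groups.

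Atf4, the bZIP activator at the centre of the response, had 2963 and 2973 in knockout arrays, against 3021 and 3040 in control arrays, with its brightest probe set (1438992_x_at). Both knockout values were lower, by a difference far inside the fitted error (log2 -0.03 ± 0.10, limma adjusted p = 0.874). The next probe set (1448135_at) had 2654 and 2974 in knockout, against 2560 and 2768 in control, and the groups overlapped (0.08 ± 0.11, limma adjusted p = 0.689). The third (1439258_at) was dim, at 72.4 and 75.5 in knockout and 71.2 and 78.6 in control (-0.01 ± 0.10, limma adjusted p = 0.945). The 95% intervals of the 3 differences, unadjusted, together ran over ratios of knockout to control between 0.837 and 1.26. Ratios of Atf4 transcript within that range remained compatible with the data. The range is no limit of detection, since on simulated data the fit recovered 4.48% of 1.5-fold changes.

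Atf5, a relative of Atf4 whose mRNA is also under eIF2 control and which has been tied to the mitochondrial unfolded protein response, had 406 and 440 in knockout arrays, against 252 and 253 in control arrays (1425927_a_at). Both knockout arrays lay above both controls, and the gap between the groups exceeded that within either. Means were 423 ± 23.9 in knockout and 253 ± 0.728 in control (SD, n = 2 each). The log2 difference was 0.71 ± 0.10 (limma adjusted p = 0.00409), or 1.63-fold with a 95% interval from 1.39 to 1.92. Of all genes, 4.47% were higher by at least as much. Atf5 had a single probe set, so no other probe set bears on this value.

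Chac1, which breaks down glutathione and is a target of ATF4, ATF3 and CHOP, had 239 and 275 in knockout arrays, against 127 and 145 in control arrays (1451382_at). The groups again did not overlap. Means were 257 ± 25.6 in knockout and 136 ± 12.9 in control (SD, n = 2 each), and the log2 difference was 0.85 ± 0.12 (limma adjusted p = 0.00376), or 1.80-fold with an interval from 1.48 to 2.18. Of all genes, 2.52% were higher by at least as much. Chac1, too, had a single probe set.

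Atf3, a bZIP factor that many stresses induce and that p53 also activates, had 174 and 336 in knockout arrays, against 198 and 299 in control arrays (1449363_at). In each group replicate 2 was the higher one, and the groups overlapped throughout. The means were close, 255 ± 114 in knockout and 248 ± 71.2 in control (SD, n = 2 each; log2 -0.00 ± 0.29, limma adjusted p = 0.995). The interval reached from 0.623 to 1.60 as a ratio of knockout to control. An SE at least this large was found for 0.39% of genes, and ratios within that interval remained compatible with the data.

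Trib3, a pseudokinase that binds ATF4 and dampens its activity, differed between the knockout arrays. Its brighter probe set (1456225_x_at) had 487 and 895 in knockout, against 561 and 409 in control. The second (1426065_a_at) had 226 and 340 in knockout, against 265 and 205 in control. With both, knockout replicate 2 was the highest array and knockout replicate 1 lay between the controls. The log2 differences were 0.45 ± 0.27 and 0.24 ± 0.20 (limma adjusted p = 0.304 and 0.468). Without knockout replicate 1 the brighter probe set was called (0.88, limma adjusted p = 0.0349), and without knockout replicate 2 the dimmer one turned to -0.04. The direction of Trib3 therefore rested on 1 knockout array. That array, replicate 2, held a higher sum of enterocyte markers (86352) than knockout replicate 1 (59440). Both control arrays held higher sums still (121335 and 119015). A link between these sums and Trib3 was not tested.

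Ddit3 encodes CHOP, a bZIP factor that lasting endoplasmic reticulum stress induces and that promotes cell death. Its brighter probe set (1417516_at) had 703 and 864 in knockout arrays, against 862 and 790 in control arrays (log2 -0.08 ± 0.13, limma adjusted p = 0.724). The dimmer one (1443897_at) had 238 and 253 in knockout, against 191 and 248 in control (0.16 ± 0.14, limma adjusted p = 0.472). The groups overlapped with both, and the signs differed.

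Cebpb and Cebpg encode C/EBP factors that pair with ATF4 on its target sites. Cebpb had 914 and 814 in knockout, against 1052 and 868 in control (1418901_at, log2 -0.15 ± 0.13, limma adjusted p = 0.494). Its dimmer probe set (1427844_a_at) had 149 and 151 in knockout, against 157 and 171 in control, which did not overlap but missed the threshold (-0.11 ± 0.10, limma adjusted p = 0.502). C/EBP gamma, the product of Cebpg, lacks an activation domain of its own and is known as a partner of ATF4 at amino acid genes. Its brightest probe set (1425262_at) had 2750 and 2858 in knockout, against 2706 and 2591 in control (0.08 ± 0.10, limma adjusted p = 0.635). The middle one (1451639_at) overlapped, at 963 and 1060 in knockout and 1076 and 981 in control. The dimmest (1425261_at) had 107 and 108 in knockout, against 130 and 121 in control (-0.20 ± 0.10, limma adjusted p = 0.217). Its 3 probe sets thus pointed in different directions, each by less than the test could resolve.

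Ppp1r15a encodes GADD34, which guides a phosphatase to eIF2 and so ends the response. It had 178 and 159 in knockout arrays, against 130 and 137 in control arrays (1448325_at), with both knockout arrays above both controls. The log2 difference of 0.30 ± 0.11 had an unadjusted p of 0.0234 and missed the threshold after adjustment by limma (adjusted p = 0.0903). Ddit4 encodes REDD1, which restrains the growth kinase mTORC1 and answers to ATF4, p53 and glucocorticoids. It had 2086 and 2298 in knockout, against 2470 and 2168 in control (1428306_at), which overlapped (-0.08 ± 0.11, limma adjusted p = 0.695).

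**Figure D2:**
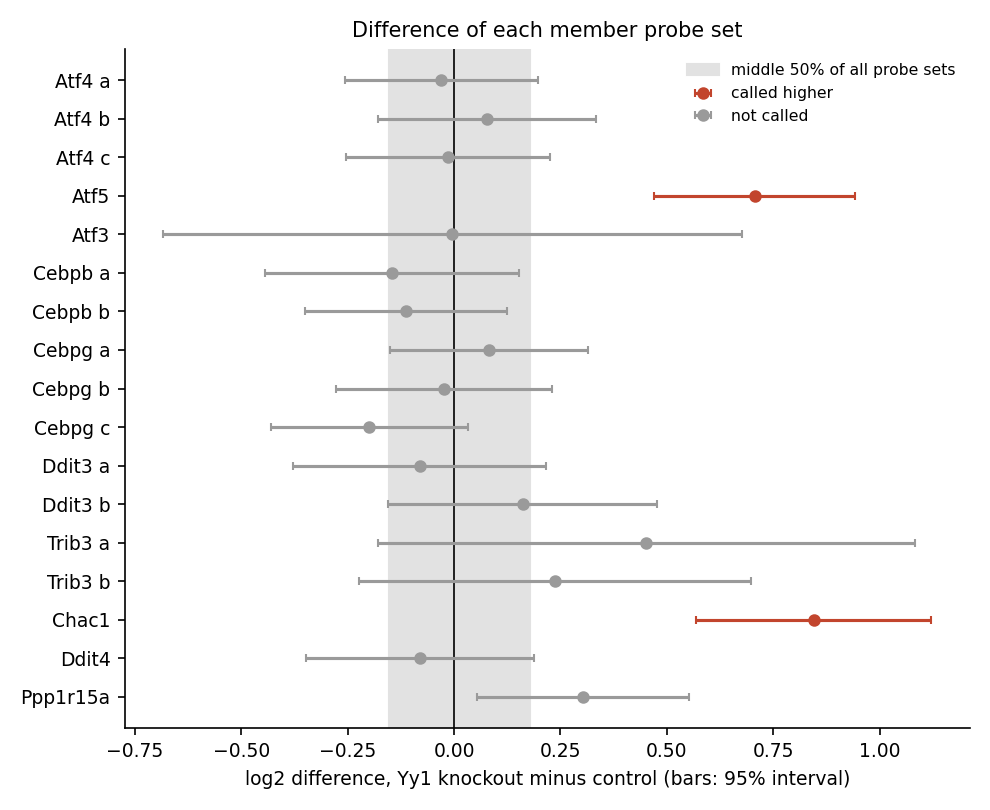
Log2 difference, knockout minus control, of each of the 17 probe sets, with its unadjusted 95% interval from limma; the grey band holds the middle 50% of all probe sets. Atf5 (0.71) and Chac1 (0.85) stand clear of 0 and are called, while the intervals of Atf3 and of Trib3 are the widest.

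Of the 15 probe sets that were not called, the 95% interval of 12 lay within a 1.5-fold change in either direction. The other 3 were those of Atf3 and Trib3. Uncalled log2 differences ran from -0.20 (the dimmest Cebpg probe set) to 0.45 (the brighter Trib3 probe set).

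The sequences around the starts of the genes that rose and of Atf4 are given. Those of members with a match to the composite C/EBP-ATF response element, which ATF4 binds, are added. A match of letters does not show binding, which was not measured. RefSeq promoter windows (GRCm38.p6) of 300 bases, 250 before and 50 after each start, were found for all 10 members, 11 windows in all. The element was searched as TGATGNAA on both strands and occurred in 3.97% of 32851 windows. It was found in Chac1, Atf3 and Trib3, at first bases -193, -110 and 15 from the start, and in no other member window. Capitals mark it in these 3 genes. YY1 was searched as GCCATNTT (6.05% of windows) and as its core ATGGCGG (4.05% of windows), which overlap where both strands read the shared ATGGC. The core was found in the window of the upstream Atf5 start, where capitals mark it, from base -64. The windows lie at chr2:119350992-119351291 (plus strand) for Chac1, chr1:191183284-191183583 (minus) for Atf3 and chr2:152344011-152344310 (minus) for Trib3. Those of Atf5 lie at chr7:44816609-44816908 and chr7:44815609-44815908 (minus), and that of Atf4 at chr15:80254934-80255233 (plus), which held none of these motifs. All are written 5' to 3'.
Chac1: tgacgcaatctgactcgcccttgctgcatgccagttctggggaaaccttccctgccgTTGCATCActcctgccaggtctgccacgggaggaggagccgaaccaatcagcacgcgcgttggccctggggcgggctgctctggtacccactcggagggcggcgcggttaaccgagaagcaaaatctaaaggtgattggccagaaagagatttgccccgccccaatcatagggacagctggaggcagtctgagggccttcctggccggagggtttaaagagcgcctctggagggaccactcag
Atf3: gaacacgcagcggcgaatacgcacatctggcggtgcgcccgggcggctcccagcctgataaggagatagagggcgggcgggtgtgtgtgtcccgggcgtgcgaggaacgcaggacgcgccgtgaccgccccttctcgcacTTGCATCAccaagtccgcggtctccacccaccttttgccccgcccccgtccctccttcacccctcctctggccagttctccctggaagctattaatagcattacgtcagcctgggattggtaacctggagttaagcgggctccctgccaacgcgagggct
Trib3: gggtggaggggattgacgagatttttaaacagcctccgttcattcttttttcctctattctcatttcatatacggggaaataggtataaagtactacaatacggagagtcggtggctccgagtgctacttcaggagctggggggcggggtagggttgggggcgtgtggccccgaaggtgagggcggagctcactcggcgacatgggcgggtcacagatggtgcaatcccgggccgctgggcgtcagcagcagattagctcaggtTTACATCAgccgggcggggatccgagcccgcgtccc
Atf5 upstream start: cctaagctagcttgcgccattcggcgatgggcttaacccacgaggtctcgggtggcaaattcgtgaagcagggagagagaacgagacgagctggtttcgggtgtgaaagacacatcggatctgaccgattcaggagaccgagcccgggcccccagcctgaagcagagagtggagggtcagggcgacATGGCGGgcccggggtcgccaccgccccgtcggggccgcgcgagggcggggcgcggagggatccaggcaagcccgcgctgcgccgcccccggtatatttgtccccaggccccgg
Atf5 downstream start: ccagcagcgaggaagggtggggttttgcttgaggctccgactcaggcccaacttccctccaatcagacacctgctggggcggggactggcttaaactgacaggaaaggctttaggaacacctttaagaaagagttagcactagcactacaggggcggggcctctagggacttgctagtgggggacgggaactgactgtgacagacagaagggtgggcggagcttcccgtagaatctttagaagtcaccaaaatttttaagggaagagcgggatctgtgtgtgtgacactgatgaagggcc
Atf4: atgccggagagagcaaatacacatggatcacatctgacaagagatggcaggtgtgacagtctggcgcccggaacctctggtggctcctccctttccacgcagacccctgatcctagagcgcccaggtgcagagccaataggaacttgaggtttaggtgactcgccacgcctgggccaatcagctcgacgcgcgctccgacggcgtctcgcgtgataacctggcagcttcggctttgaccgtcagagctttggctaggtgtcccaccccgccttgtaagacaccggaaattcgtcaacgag

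The palindromic cAMP response element TGACGTCA (1.79% of windows) was found in the window of Ppp1r15a, from base -12. Of the members with a C/EBP-ATF match, Chac1 rose, while Atf3 and Trib3 were not called. Atf5 rose without a match in these windows.

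Upstream of Atf4, the eIF2 subunit Eif2s3x and subunits of the exchange factor eIF2B were among the genes that rose. Of 19 measured genes of the eIF2 kinases, phosphatase, eIF2 and eIF2B subunits and related factors, 8 rose and 1 fell (median log2 0.24). These were 42.1% and 5.26% of the list, against 12.6% and 10.4% of all genes. The related factors were Impact, Nck1, Dnajc3 and Eif2a, which is no subunit of eIF2 and was among the 8. Impact was not called with its brightest probe set (0.24 ± 0.11), though its dimmer ones were called higher (0.97 ± 0.15 and 0.90 ± 0.10). The eIF2 subunit Eif2s1 was not measured. Eif2s2 was not called with its brightest probe set (0.17 ± 0.10), though some of its dimmer ones were called higher. Of the 4 kinases, Eif2ak3 (PERK, the endoplasmic reticulum sensor) rose with its brightest probe set, at 371 and 473 in knockout and 291 and 304 in control (0.47 ± 0.13, limma adjusted p = 0.0431). Its other probe sets were not called (0.25 ± 0.12 and 0.21 ± 0.11). Eif2ak2 (PKR, the sensor of double-stranded RNA) had 1584 and 1679 in knockout, against 1275 and 1375 in control (0.30 ± 0.10, limma adjusted p = 0.0863), and its other 2 probe sets were called higher (0.50 ± 0.11 and 0.37 ± 0.10). Eif2ak1 (HRI, the heme-regulated kinase) had 848 and 871 in knockout, against 950 and 944 in control (-0.14 ± 0.10, limma adjusted p = 0.385). Eif2ak4 (GCN2, the amino acid sensor) had 119 and 147 in knockout, against 138 and 155 in control (-0.13 ± 0.13, limma adjusted p = 0.538). The smallest p of the list was that of the eIF2B subunit Eif2b3, at 395 and 336 in knockout and 194 and 163 in control (0.97 ± 0.13). Next by p came the eIF2 gamma subunit Eif2s3x, at 4054 and 3968 in knockout and 2587 and 2587 in control (0.63 ± 0.10), and the eIF2B subunit Eif2b5 (0.66 ± 0.12). The gene that fell was Ppp1cc, a catalytic subunit of the phosphatase (-0.42 ± 0.10). Ppp1r15b, the constant partner of that phosphatase, had 3541 and 4095 in knockout, against 3763 and 3888 in control (-0.01 ± 0.11). The count of 8 was 3 without either control array, 5 without knockout replicate 1 and 4 with a pseudocount of 1.

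Among genes listed as ATF4 targets, many of amino acid supply rose, while the Atf4 transcript did not pass the test. Whether ATF4 acted on them here was not tested. Of 22 measured ATF4 targets of amino acid synthesis and transport, 10 rose and 3 fell (median log2 0.29). Those were 45.5% and 13.6%, against 12.6% and 10.4% of all genes. Psat1, an enzyme of serine synthesis, had 2217 and 2021 in knockout, against 575 and 454 in control (2.02 ± 0.13, limma adjusted p = 0.000445). Asns, asparagine synthetase, had 2400 and 2239 in knockout, against 826 and 870 in control (1.43 ± 0.10, limma adjusted p = 0.000565). Shmt2, which makes glycine in mitochondria, had 1314 and 1136 in knockout, against 486 and 499 in control (1.28 ± 0.11, limma adjusted p = 0.000935). The other genes that rose were Phgdh, Psph and Mthfd2 of the serine and one-carbon pathway and the carriers Slc7a5, Slc1a4, Slc38a2 and Slc7a1, by 0.43 to 1.65. A further Phgdh probe set was called higher (1.51 ± 0.12), while its others were not called (-0.05 ± 0.10 and 0.41 ± 0.12). The dimmer probe sets of Slc1a4 and Slc38a2 were not called. The genes that fell were Slc3a2 (-0.78 ± 0.14), the heavy chain that pairs with Slc7a5, Got1 (-0.62 ± 0.10) and Cbs (-0.50 ± 0.13; 0.07 ± 0.11 with its dimmer probe set), a count that was 1 without control replicate 1. Slc7a11, the cystine carrier, was dim at 62.3 and 59.9 in knockout and 46.2 and 46.9 in control (0.30 ± 0.10, limma adjusted p = 0.0709).

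Of 12 cytosolic aminoacyl-tRNA synthetase genes, which load amino acids onto tRNA, 10 rose and 0 fell by limma, with 0 lower at an unadjusted p under 0.05 (median log2 0.77). In all 12 both knockout arrays lay above both controls, where the groups did not overlap in 62.0% of all genes. The 10 were 83.3% of the list, against 12.6% of all genes called higher. Mars1 had 2130 and 2073 in knockout, against 906 and 903 in control (1.20 ± 0.10, limma adjusted p = 0.000780). Cars had 568 and 565 in knockout, against 245 and 256 in control (1.13 ± 0.10), while its dimmer probe set was not called (0.08 ± 0.12). Eprs had 2857 and 2799 in knockout, against 1425 and 1462 in control (0.96 ± 0.10). Nars (0.23 ± 0.10) and Yars (0.34 ± 0.11) were not called, though the dimmer probe set of Nars was (0.47 ± 0.10).

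**Figure D3:**
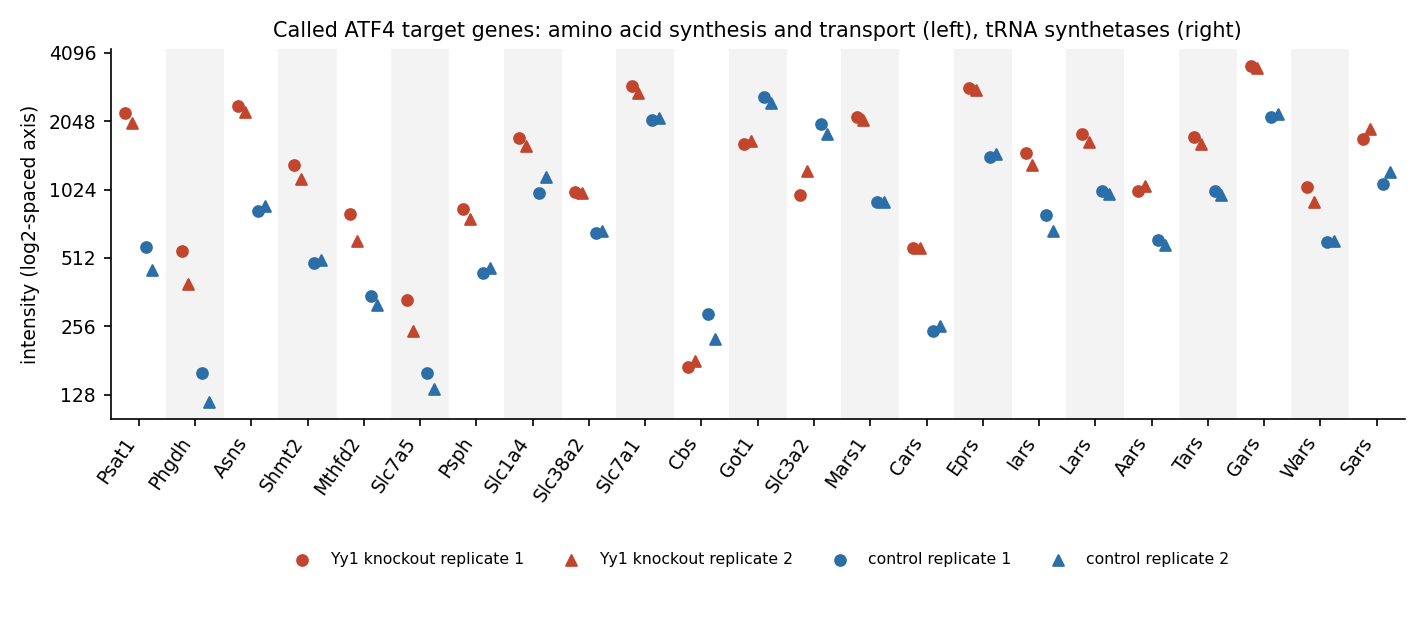
Intensity (log2-spaced vertical axis) of the called ATF4 target genes in each array, knockout in red to the left and control in blue to the right, circles for replicate 1 and triangles for replicate 2. The 13 amino acid genes come first, in order of their log2 difference, and the 10 tRNA synthetases follow; Cbs, Got1 and Slc3a2 are the genes below control.

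Of 21 measured stress, growth and autophagy targets of ATF4, 3 rose and 5 fell (median log2 0.07). Those were 14.3% and 23.8%, against 12.6% and 10.4% of all genes. The count of 5 was 2 without knockout replicate 1, 3 without control replicate 1 and 2 without control replicate 2. Sesn2, a sestrin that p53 also activates, had 691 and 718 in knockout, against 234 and 318 in control (1.32 ± 0.15), and its other probe set was called the same way (0.94 ± 0.15). Cars, listed here as well, and Rhbdd1 (0.62 ± 0.14) were the other genes that rose. Vegfa, the angiogenic factor, had 323 and 374 in knockout, against 644 and 611 in control (-0.82 ± 0.11, and -0.25 ± 0.10, not called, with its dimmer probe set). Gadd45a (-0.78 ± 0.13), Klhl24 (-0.69 ± 0.13), Crebrf (-0.49 ± 0.13) and Vldlr (-0.42 ± 0.11) also fell. None of the 5 dimmer probe sets of Vldlr was called, and their differences ran from -0.18 to 0.25. Of the 6 called genes of this list with several probe sets, 2 had another one called the same way and 0 the opposite way. With their brightest probe sets Eif4ebp1 (0.33 ± 0.10) and Ero1a (0.32 ± 0.11) were not called. Each had a dimmer probe set called higher, by 0.71 ± 0.12 and 0.43 ± 0.10. Nupr1 had 3414 and 4326 in knockout, against 2543 and 3387 in control (0.39 ± 0.17, limma adjusted p = 0.163). Fgf21 was dim at 63.2 and 85.2 in knockout and 68.3 and 59.3 in control.

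The unfolded protein response of the endoplasmic reticulum, of which PERK is 1 sensor, was measured with 26 genes. By limma 0 rose and 2 fell, and 2 were higher and 5 lower at an unadjusted p under 0.05 (median log2 0.05). The share called lower was 7.69%, against 10.4% of all genes. The genes that fell were Creb3l2, at 319 and 501 in knockout and 908 and 897 in control (-1.14 ± 0.19), and Creb3l3, at 695 and 1166 in knockout and 1634 and 1706 in control (-0.88 ± 0.21). Both encode membrane-bound bZIP factors related to ATF6, and 1 gene was called lower without either control array. The lumen chaperone Hspa5 (BiP) had 6052 and 5727 in knockout, against 6013 and 5356 in control (0.05 ± 0.11). The third gene by p, Edem1, was not called (-0.36 ± 0.12, limma adjusted p = 0.0813), though its dimmer probe set was called lower (-0.47 ± 0.11). Hyou1 was not called with its brightest probe set (0.21 ± 0.12), though a dimmer one was called higher (0.43 ± 0.11). Pdia4 was not called with its brightest probe set (0.07 ± 0.14), though its dimmer one was called lower (-0.43 ± 0.11). Of 14 genes of the mitochondrial unfolded protein response, 0 fell by limma and 0 were lower at an unadjusted p under 0.05 (median log2 0.27). By limma 5 rose (35.7%, against 12.6% of all genes). They were Oma1 (0.60 ± 0.11), the protease upstream of the mitochondrial branch, Clpx (0.45 ± 0.10; -0.01 ± 0.11 with its dimmer probe set), Trap1 (0.45 ± 0.11), Hspa9 (0.39 ± 0.10) and Dnaja3 (0.40 ± 0.11). Dele1, which carries the signal of Oma1 to HRI, had 663 and 641 in knockout, against 708 and 538 in control (0.08 ± 0.14). None of the 5 remained called without knockout replicate 1 or without either control array.

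**Figure D4:**
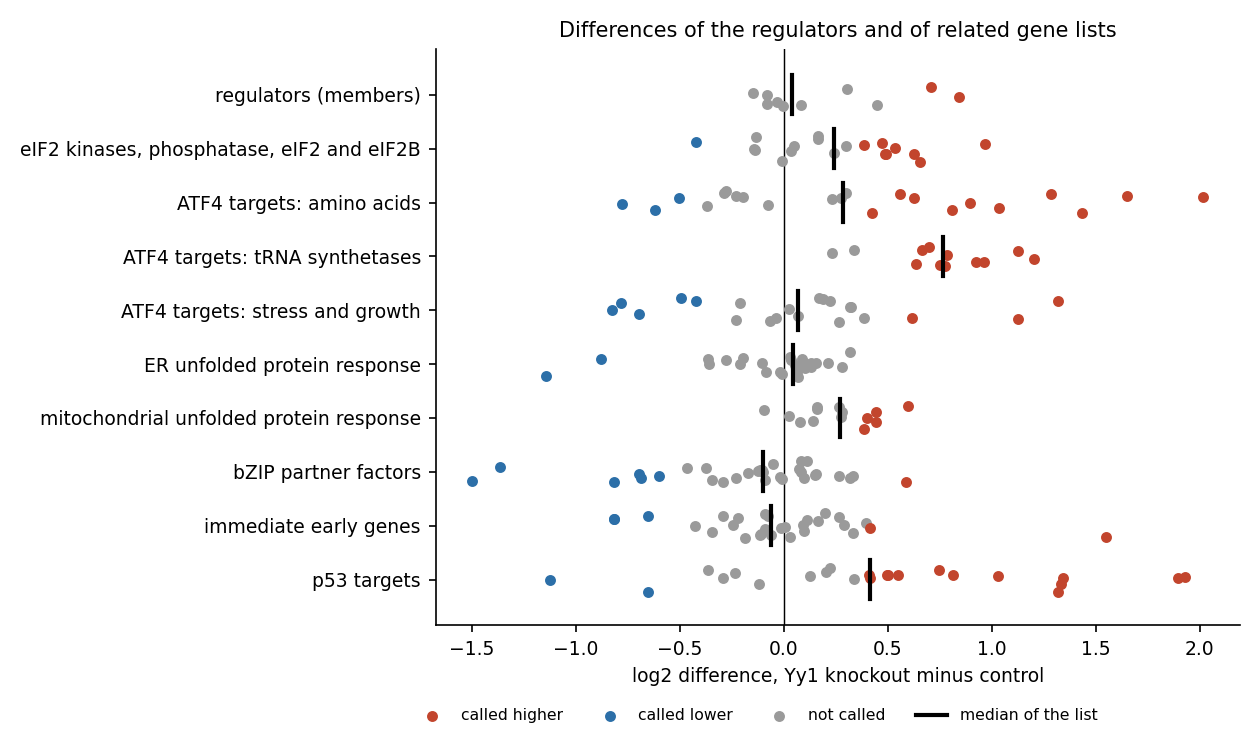
Log2 difference, knockout minus control, of each gene (brightest probe set) in the 10 regulators and 9 related lists; red points were called higher, blue lower, grey not called, and the black bar is the median of the list. The regulators centre near 0 (median 0.04), while the amino acid targets (0.29) and tRNA synthetases (0.77) lie to the right.

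Of 31 measured bZIP factors other than the members, which could pair with them, Cebpd (0.59 ± 0.12) rose and 6 fell (median log2 -0.10). Those were 3.23% and 19.4%, against 12.6% and 10.4% of all genes. Maf had 1357 and 2258 in knockout, against 4863 and 5085 in control (-1.50 ± 0.21). Fosl2 (-0.70 ± 0.14), Fos (-0.81 ± 0.16), Dbp (-1.36 ± 0.31), Bach1 (-0.60 ± 0.16) and Bach2 (-0.69 ± 0.18) were the others that fell. The count of 6 was 2 without control replicate 1 and 1 when control replicate 2 was left out. In this list 0 rose without knockout replicate 1 or without either control array. Several of the regulators are also induced while tissue is taken apart. Of 29 genes of tissue dissociation and the immediate early response 2 rose, Egr1 (1008 and 1427 in knockout, 317 and 503 in control; 1.55 ± 0.23) and Ier5 (0.41 ± 0.10), and 3 fell, Fos, Btg2 (-0.65 ± 0.15) and Klf4 (-0.81 ± 0.19). Neither share of this list, 6.90% higher and 10.3% lower, exceeded that of all genes (12.6% and 10.4%). With 1 array left out, 1 rose in each case and between 0 (without control replicate 1) and 5 (without knockout replicate 2) fell. The heat shock gene Hspa1b spread widely, at 1007 and 1261 in knockout and 2135 and 767 in control. Of 23 p53 targets 13 rose and 2 fell (median log2 0.41), with the smallest p for Psrc1 (1.93 ± 0.11), Ccng1 (1.33 ± 0.11) and Zmat3 (1.03 ± 0.10). The p53 list thus had 56.5% higher and 8.70% lower, against 12.6% and 10.4% of all genes. Sesn1 (-1.12 ± 0.25) and Btg2 were the genes that fell, and Cdkn1a was not called (-0.23 ± 0.15). The count of 13 was 8 without knockout replicate 2 and 8 without control replicate 1, and the count of 2 was 0 without either control array. Sesn2 was counted in this list and among the ATF4 targets.

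Atf4 was also compared with other genes by its course over the 4 arrays. Among 10177 genes above the median intensity, the Euclidean distance between centred log2 values was smallest for Wdr1 (0.00698), Pld3 (0.0132), Gata5os (0.0142), Pcgf3 (0.0183) and Calr (0.0189). As the Atf4 values hardly differed, these are other genes with flat values, and 630 genes lay within 0.1. Of the other regulators Cebpg was nearest (0.128, rank 1100) and Chac1 farthest (0.893, rank 9174).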

How the data were processed

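Biotin-labelled total RNA of jejunal crypts was hybridised to Affymetrix arrays, per the labels' protocols, 2 knockout and 2 control arrays. The authors deposited linear intensities, 1 per probe set and array. How these were summarised, background-corrected and normalized is not given in the sources used here. Medians were alike, so no scaling was added. Gene names came from the platform annotation of GEO, brought up to date by Entrez ID with RefSeq (GRCm38.p6). Of 45101, 64 array controls were left out, 34945 had 1 gene, 932 several and 9160 none. A gene in a list was represented by its probe set with the highest mean.

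Tests used limma 3.58.1 in R 4.3.3 (lmFit, eBayes, no block, 7.34 degrees of freedom) on log2(intensity + 16) of 45037 probe sets. On this scale folds of dim genes come out too small. On simulated data the fit recovered 4.48% of 1.5-fold, 82.1% of 2-fold and 99.4% of 4-fold changes, and 5.07% of calls were false. The simulation changed far fewer probe sets than the 20.0% called here, so recovery in the real data may differ. The 2 arrays a group limit the precision. Members, lists, motifs and tests were chosen with earlier results of these data known. The rule for named genes took all members, the 4 eIF2 kinases and the 3 genes of each list with the smallest p. Others named were chosen after their values were seen. Alternatives were other pseudocounts, scalings, priors, a filter, a replicate block, 1 array left out, another probe set a gene and a fit over 1 probe set a gene. Other lists tested as cell markers are given with the samples.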

Additional observations from a re-analysis of the deposited data

How the results depend on the processing

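Chac1 and Atf5 were called higher under all 11 alternatives run for single probe sets, with log2 differences of 0.68 to 0.94 and 0.62 to 0.76 and limma adjusted p of at most 0.0293 and 0.0306. Of 187 alternative values for the 17 member probe sets, 174 kept their direction and side of the threshold, 1 newly passed it and 12 changed sign, none of the latter in a called probe set. With 1 array left out, the member probe sets and the member genes called higher numbered 2 to 3, the third being Trib3 without knockout replicate 1, and 0 were lower. The log2 differences then ran from -0.45 to 0.44 for Atf3, -0.23 to 0.0652 and -0.0148 to 0.34 for the probe sets of Ddit3, -0.17 to 0.0141 for Ddit4, -0.0417 to 0.51 for the dimmer and 0.02 to 0.88 for the brighter probe set of Trib3, -0.0928 to 0.0443 for the middle probe set of Cebpg, and -0.0042 to 0.16 and -0.0729 to 0.044 for 2 probe sets of Atf4. With a pseudocount of 64 Atf3 stood at 0.0023.

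Over all features, leaving out 1 array gave 2056 to 4629 higher and 1949 to 3908 lower probe sets (4921 and 4092 with all arrays), and 995 to 2090 higher and 929 to 1882 lower genes (2297 and 1887). Without 1 array a group holds 1, which is assumed to vary like the other group. The replicate numbers are shared by the groups, but same-numbered arrays deviated together only at r = 0.0957 across probe sets, with 2 pairs. With the replicate block 2 member probe sets were called. Over all alternatives the list counts of higher genes ran from 7 to 10 (amino acid targets), 9 to 11 (tRNA synthetases), 3 to 10 (eIF2 and eIF2B group), 2 to 5 (stress targets), 0 to 7 (mitochondrial response) and 8 to 13 (p53 targets), and of lower genes from 1 to 8 (bZIP factors). The causes were not tested. No depth is defined for arrays.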
